A study of Mus musculus with 4 samples.

Results

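Endothelial nuclei were selected from single-nucleus RNA sequencing of embryonic mouse neocortex by their own transcript counts, and they made up 383 of 29656 retained nuclei (1.29%). A nucleus was chosen by at least 3 transcripts of *Flt1*, at least 3 transcripts of *Pecam1*, *Cldn5*, *Kdr* and *Cdh5* together, at most 2 transcripts of *Pdgfrb* and no transcript of *Csf1r*, among barcodes with 1500 to 60000 transcripts. The medial neocortex was taken at E16.5, in late gestation, nuclei were isolated from frozen tissue, and libraries were made with a combinatorial barcoding kit that needs no droplets. All 4 libraries came from mice carrying *Sst-Cre* and the Cre-dependent reporter tdTomato, 2 of them from controls of the genotype *Sst-Cre/tdTomato* and 2 from *Sst-Cre/tdTomato/Dnmt1 loxP2* mice, called *Dnmt1* KO here, in which *Dnmt1* is flanked by recombination sites. Because the *Sst* promoter drives Cre, the deletion is directed at somatostatin interneurons, and endothelial cells are not the cells it targets. *Sst* itself was found in 0 of 36 endothelial nuclei of *Dnmt1* KO replicate 1, 1 of 227 of *Dnmt1* KO replicate 2, 2 of 77 of control replicate 1 and 1 of 43 of control replicate 2. Values of the 4 libraries are given below in this order, called library order, unless they are named.

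Brain endothelial cells line the vessels that invade the cortex from the surrounding plexus, led by tip cells that follow VEGF through the receptor KDR, with FLT1 acting mainly as a decoy. Wnt ligands from neural progenitors act on their Frizzled receptors to switch on the blood-brain barrier: sealed tight junctions, low vesicle traffic, and carriers for glucose, amino acids, lipids and xenobiotics. Arterial and venous identities are set along the vessel tree, with Notch signalling and ephrin B2 on the arterial side and EphB4 and COUP-TFII (*Nr2f2*) on the venous side.

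The rule was first checked against 12 endothelial genes that it did not use, from the angiopoietin receptor *Tek* to the transcription factor *Mecom*. Among nuclei that met the remaining conditions, the 194 nuclei without a *Flt1* transcript had a median of 0 transcripts of the 12 genes. The 5 nuclei with 2 *Flt1* transcripts, just outside the rule, had a median of 7.57 per 10000 transcripts, and the 3 nuclei with 3, just inside, had 86.9. Their quartiles, 2.64 to 47.7 and 43.5 to 131, overlapped, and 33.3% of the 3 had none of the 12 genes. The level was 103.0 per 10000 in the 9 nuclei with 4 or 5 *Flt1* transcripts and 128 in the 282 nuclei with more than 20. Most members were far inside the threshold, with a median *Flt1* count of 45.5, 31.0, 32.0 and 66.0 transcripts in library order. A further 62 nuclei had 3 or more *Flt1* transcripts but under 3 of the 4 other genes together, whatever their *Pdgfrb* and *Csf1r* counts. The 7 of those that had 6 to 10 *Flt1* transcripts and passed the limits on *Pdgfrb* and *Csf1r* had a median of 93.3 per 10000, so some nuclei with endothelial genes were left out, while 4 nuclei were lost to *Pdgfrb* and 1 to *Csf1r*.

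**Figure D1:**
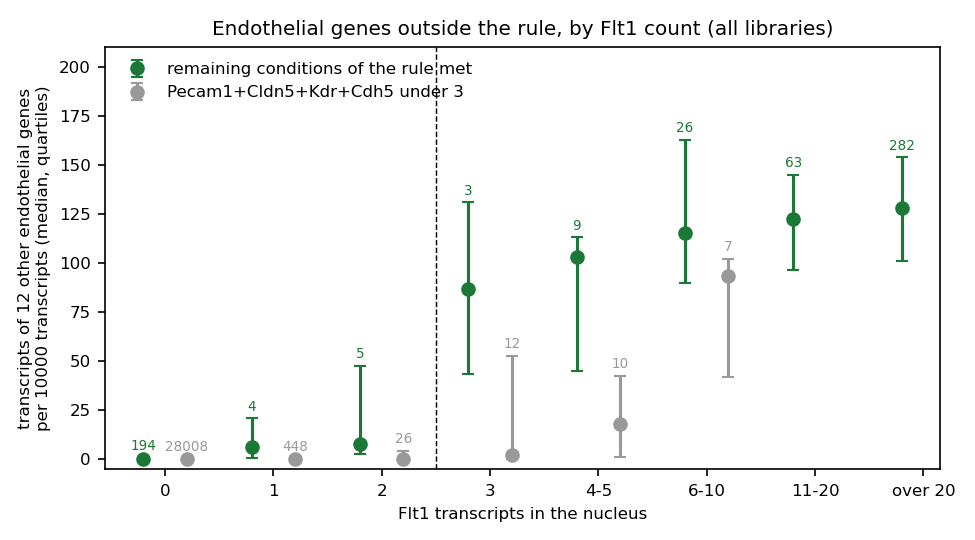
Transcripts of 12 endothelial genes outside the rule per 10000 transcripts of a nucleus (points, median; bars, quartiles) against its *Flt1* count, over all libraries, with the number of nuclei above each point. Green points are nuclei that met the remaining conditions and grey points nuclei with under 3 transcripts of *Pecam1*, *Cldn5*, *Kdr* and *Cdh5*. The step between 2 and 3 *Flt1* transcripts (dashed line) goes from 7.57 to 86.9 per 10000, medians of 5 and 3 nuclei with overlapping quartiles.

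The 4 libraries did not contribute equally. The endothelial sums held 514036, 3200034, 1059325 and 1251686 transcripts in library order, and no barcode was shared between libraries. Control replicate 2 was the only library of batch 2, was made from 2 sublibraries where the others had 8, and was deeper, with a median of 25085 transcripts per endothelial nucleus against 11762 to 12845 elsewhere. In *Dnmt1* KO replicate 2 the other retained nuclei held more transcripts of 10 meningeal fibroblast genes, 173 CPM summed (transcripts per 1000000 in the sum) against 9.0 to 14.8 in the other libraries, with *Lum* at 0 in all endothelial sums. Scrublet called 46 of the 383 endothelial nuclei doublets, from 6.98 to 13.2% per library, against 2.91 to 7.36% of the other nuclei. At least 3 transcripts of the excitatory neuron genes *Neurod2* and *Neurod6* were found in 34 endothelial nuclei, 1 of 36, 12 of 227, 8 of 77 and 13 of 43 in library order. The share was lowest at 2.78% in *Dnmt1* KO replicate 1 and highest at 30.2% in control replicate 2, and the genotype tests are also given without these nuclei.

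Many genes differed between endothelial and other nuclei in the same direction in every library, led by *Fli1*, *Adgrl4* and *Cyyr1*. Of 20956 genes with enough transcripts, 1313 (6.27%) were at least 2-fold higher in the endothelial sum than in the other nuclei of each of the 4 libraries and 802 (3.83%) were at least 2-fold lower, with a median log2 ratio over all genes of -0.03. These ratios, on a log2(CPM + 5) scale, are a description without a test, because the nuclei were chosen by expression. The ETS factor *Fli1* (chr9:32333500-32454157 in GRCm39, minus strand) had 2078, 2545, 2320.4 and 1910.2 CPM in the endothelial sums, in library order, against 2.87, 8.01, 3.18 and 2.00 in the others. Its lowest log2 ratio over the libraries, 7.61, was the highest of all genes outside the rule. *Fli1* is also expressed by microglia, and 69 nuclei with microglial counts had 1088 CPM pooled, against 62.0 CPM in 215 mural nuclei. The adhesion receptor *Adgrl4* followed with log2 ratios of 7.47 to 7.85, *Cyyr1* with 7.28 to 7.57 and the zinc finger factor *Mecom* (chr3:30005439-30602157) with 7.24 to 8.68. *Ptprb*, the phosphatase that restrains TEK, had 7.21 to 7.73, and *Tek* had at least 6.80.

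The 25 leading genes mixed identity factors, secreted proteins and transporters. *Egfl7*, a secreted endothelial protein, had 846, 707, 739 and 516 CPM in endothelial nuclei and at most 0.961 in the others. *Eng*, the TGF-beta co-receptor endoglin, had 642, 532, 546 and 502 CPM against at most 1.63. *Vwf*, the von Willebrand factor, had 584, 320.3, 307 and 351 CPM, highest in *Dnmt1* KO replicate 1. Barrier transporters stood among the 25 as well, namely the glucose carrier *Slc2a1* (chr4:118965908-118996365) at 1049, 784, 1048 and 678 CPM, and the efflux pump *Abcb1a* (chr5:8710022-8798575) at 298, 499, 489.9 and 387 CPM. The amino acid carrier *Slc7a5* had 883, 540.0, 879.8 and 679 CPM. In the mural nuclei *Ets1* had 413 CPM pooled, against 1219 to 1975 in the endothelial sums, *Igfbp7* had 377 and *Rhoj* 280. Other leading genes were low there, with *Erg* at 3.26, *Egfl7* at 2.08 and *Adgrl4* at 1.48 CPM. ETS factors were represented by *Fli1*, *Erg* and *Ets1*.

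ETS factors bind a GGAA core, so the 250 bases before the start of 3 of these genes are shown, one for an endothelial signal, one for a receptor and one for a pump, with each AGGAAG (or CTTCCT, its reverse complement) in capitals. They were picked with the matches known and hold the most, 3 in *Egfl7* and 2 in each of the others, while the remaining windows of the leading genes hold at most 1 and those of *Mecom*, *Tek* and *Slc2a1* hold 0. The sequences are from RefSeq, build GRCm38.p6, and are given on the plus strand, which is the coding strand of all 3 genes: chr2:26580833-26581082 for *Egfl7*, chr2:32646345-32646594 for *Eng* and chr5:8566841-8567090 for *Abcb1a*. The first *Egfl7* window also holds the longer ACAGGAAG, which overlaps one of the AGGAAG matches.
Egfl7: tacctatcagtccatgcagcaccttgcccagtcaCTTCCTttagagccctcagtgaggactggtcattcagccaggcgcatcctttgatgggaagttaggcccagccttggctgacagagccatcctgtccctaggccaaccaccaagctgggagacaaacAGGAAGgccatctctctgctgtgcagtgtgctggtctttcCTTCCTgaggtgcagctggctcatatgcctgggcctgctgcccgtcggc
Eng: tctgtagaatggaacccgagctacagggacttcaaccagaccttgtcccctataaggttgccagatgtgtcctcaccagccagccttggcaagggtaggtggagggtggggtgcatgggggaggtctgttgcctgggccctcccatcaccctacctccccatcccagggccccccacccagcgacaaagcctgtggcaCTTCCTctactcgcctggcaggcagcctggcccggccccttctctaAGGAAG
Abcb1a: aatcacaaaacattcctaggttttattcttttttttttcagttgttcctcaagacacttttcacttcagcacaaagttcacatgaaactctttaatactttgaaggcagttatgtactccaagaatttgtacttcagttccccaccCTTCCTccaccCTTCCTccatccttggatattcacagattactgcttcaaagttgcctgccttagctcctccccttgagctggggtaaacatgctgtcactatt

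AGGAAG was found on either strand in 9686 of 32851 such windows of all genes (29.5%), in 488 of 1425 windows of genes higher in endothelial nuclei (34.2%) and in 11 of 24 windows of the 16 leading genes that could be matched (45.8%). ACAGGAAG was found in 2.90%, 3.02% and 8.33% of the same windows, the last being 2 windows of 1 gene, *Egfl7*. A match describes the letters of the window and not binding.

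Transcription factors of the endothelium were uniform as a group. All 19 measured members were called higher in endothelial nuclei, with a median log2 ratio of 3.62. *Erg* had 570.0, 543, 704 and 547 CPM against 3.50 to 4.70 in the other nuclei. *Sox17*, an arterial and barrier factor, had 130.3, 98.7, 117 and 79.1 CPM against at most 0.177. The hypoxia-responsive *Epas1* had 636, 648, 683 and 500.1 CPM against 2.08 to 5.67 in all others and 276 CPM pooled in the mural nuclei, and *Sox18* had too few transcripts to be compared.

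Barrier transporters were nearly as uniform, with 16 of 18 called higher and a median log2 ratio of 4.07. The cationic amino acid carrier *Slc7a1* had 1704, 1413, 2007 and 1569.9 CPM in endothelial nuclei, and its levels in the other nuclei were 20.9 to 24.8 CPM. *Slc22a8*, an organic anion carrier, had 163, 268, 291 and 197 CPM against at most 2.28, and *Mfsd2a*, the lipid transporter that holds vesicle traffic down, had 193, 127, 248 and 197 CPM against 3.90 to 5.83. The organic anion carrier *Slco1a4* had only 5.84, 12.2, 23.6 and 0 CPM, and the monocarboxylate carrier *Slc16a1* 1.95 to 9.59 CPM, so neither met the call. *Slc2a1* was detected in 95.6 to 100% of endothelial nuclei per library. *Mfsd2a* was detected in 83.3, 59.5, 81.8 and 100% of them, against 4.73 to 6.59% of excitatory neuron nuclei, which had medians of 15073 to 24649 transcripts. After every nucleus was thinned to 5000 transcripts these shares were 65.7, 39.6, 68.6 and 61.9% against 1.24 to 1.94%, lowest in *Dnmt1* KO replicate 2.

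*Plvap*, the diaphragm protein of leaky vessels that falls as the barrier matures, was sparse. Its levels were 21.4, 3.44, 3.78 and 6.39 CPM, and it was detected in 22.2, 3.96, 5.19 and 14.0% of endothelial nuclei against 0.448 to 0.600% of neuron nuclei. Of the other 5 measured genes of caveolae and transcytosis all were called higher, among them the caveolin *Cav1* at 156, 267, 119 and 141 CPM. Junction genes were called higher in 10 of 13 cases, with a median log2 ratio of 3.03. Occludin (*Ocln*) had 79.8, 104, 77.4 and 77.5 CPM against at most 1.61, and the scaffold *Tjp1* had 1632, 1508, 1461 and 1081 CPM against 136 to 200.0. *Cgn*, *Jam3* and *Afdn* did not meet the call.

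In the VEGF group, 3 of 11 measured genes outside the rule were called higher (median log2 ratio 0.59): the receptor *Flt4*, its ligand *Vegfc* and the nitric oxide synthase *Nos3*. *Vegfa* itself had 13.6, 7.50, 4.72 and 6.39 CPM in endothelial nuclei and 18.5 to 27.2 CPM in the others, and the co-receptor *Nrp1* had 612 to 987 CPM in endothelial nuclei and 645 to 882 in the others. In the angiopoietin group the receptors *Tek* and *Tie1* and the phosphatase *Ptprb* were called higher, 3 of 6, while *Angpt1* had 29.2, 9.06, 5.66 and 8.79 CPM against 19.2 to 68.6. *Angpt2*, which tip cells secrete, had 35.0, 30.6, 3.78 and 45.5 CPM and was low in control replicate 1.

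Of 21 genes of the canonical Wnt group, 13 were called higher and 0 lower, with a median log2 ratio of 2.34. The nuclear effector *Lef1* had 1101, 984, 1077 and 1015 CPM against 127, 61.2, 40.1 and 30.4 in the other nuclei of the same libraries. *Apcdd1*, a target and inhibitor of the pathway, had 714, 605, 899.6 and 718 CPM, and the inhibitor *Nkd1* had 640.0, 267, 779 and 527 CPM, lowest in *Dnmt1* KO replicate 2. The receptor *Fzd6* had 352, 263, 359.7 and 376 CPM against 1.15 to 3.44, and *Fzd4*, the Norrin receptor, had 19.8 to 29.4 CPM against at most 0.725. The barrier ligands *Wnt7a* and *Wnt7b* lay in the other direction without meeting the call, *Wnt7b* with 5.84, 10.3, 14.2 and 43.1 CPM against 33.3 to 65.5.

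Notch and BMP genes were partly enriched. In the Notch group 7 of 13 were called higher (median log2 ratio 1.72), with the endothelial receptor *Notch4* at 200.4, 172, 209 and 129 CPM and its ligand *Dll4* at 89.5, 64.7, 76.5 and 63.1 CPM, both under 1 CPM in the other nuclei. In the TGF-beta and BMP group 7 of 13 were higher and 1, *Bmper*, was lower, and the receptor *Acvrl1* had 136, 111, 114 and 83.9 CPM. Ephrins and their receptors had a median below 0, at -0.99, with 3 of 19 higher (*Efna1*, *Epha2* and the venous receptor *Ephb4*) and 4 lower. *Epha5*, one of the 4, had 210.1, 479, 239 and 531 CPM against 1590.0 to 2061.

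Basement membrane genes and their integrin receptors were called higher in all 16 cases, with a median log2 ratio of 4.15. Collagen IV (*Col4a1*) had 975, 949, 922 and 731 CPM against 14.6 to 37.5, the laminin *Lama4* had 1827, 1452, 1943 and 1430.1 CPM, and nidogen (*Nid1*) had 299.6, 203, 265 and 217 CPM. Among guidance receptors the roundabout receptor *Robo4* had 112 to 168 CPM, while the neuronal *Robo1* was lower, at 296 to 467 CPM against 1294 to 2129. Tip cell genes were called higher in 8 of 11 cases, with *Pdgfb*, the factor that recruits pericytes, at 305, 181, 215 and 236 CPM and *Apln* at 73.9, 39.4, 38.7 and 59.1 CPM.

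**Figure D2:**
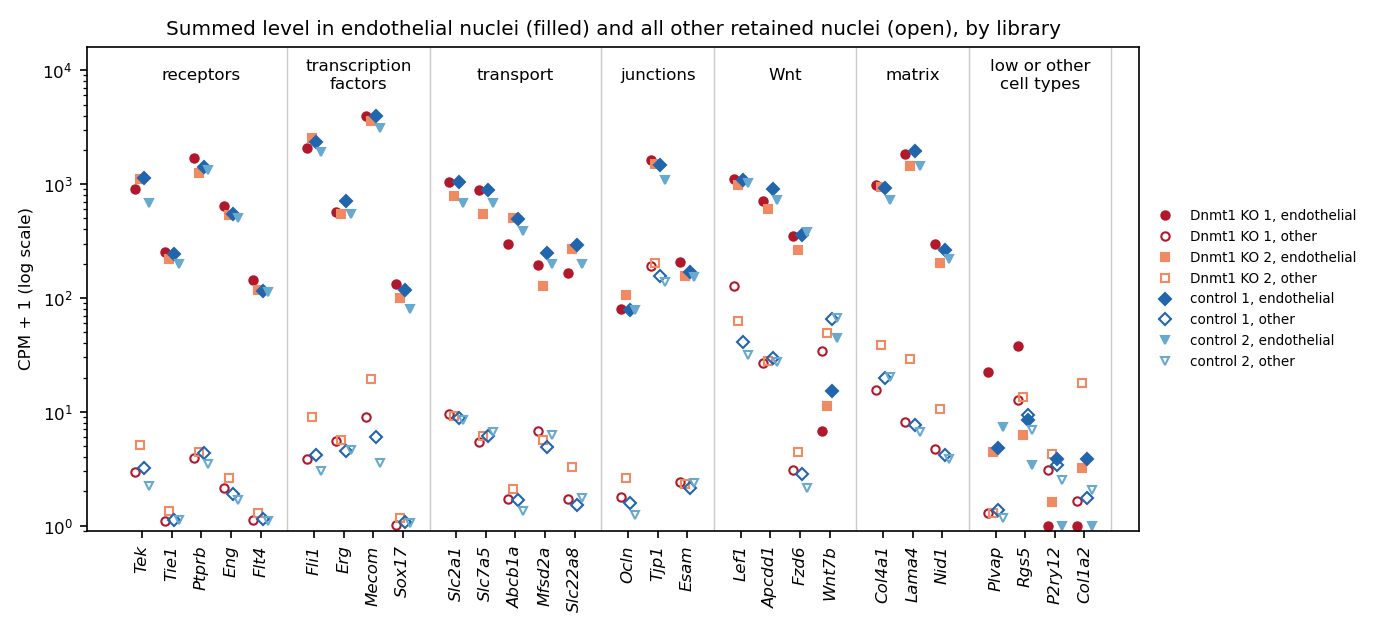
Level of 28 genes in CPM + 1 (log axis) in the endothelial nuclei (filled symbols) and in all other retained nuclei (open symbols) of each of the 4 libraries, grouped by role. Receptors, factors, transporters and matrix genes lie well above the open symbols in all libraries, while *Wnt7b* lies below them. *Plvap*, *Rgs5*, *P2ry12* and *Col1a2* are mostly low in endothelial nuclei, with *Rgs5* and *Plvap* highest in *Dnmt1* KO replicate 1.

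Few markers of other cell types were called higher. Of 11 mural genes outside the rule none was, and the whole list, which includes the *Pdgfrb* that the rule limits, summed to 130.3, 13.4, 36.8 and 8.0 CPM against 71.8, 68.4, 54.5 and 39.8 CPM in the other nuclei. The sum was above that of the other nuclei in *Dnmt1* KO replicate 1 alone, where *Rgs5* had 37.0 CPM and *Kcnj8* 1.95 CPM. Of the microglial genes only *Inpp5d*, a lipid phosphatase, was called higher, at 162 to 228 CPM, while *Aif1*, *Tyrobp* and *C1qb* were at 0, as the rule fixed *Csf1r* to be. None of 10 fibroblast genes and 1 of 7 erythroid genes, *Hbb-bs*, was called higher. The fibroblast list summed to 7.78, 32.5, 15.1 and 60.7 CPM against 14.8, 173, 11.3 and 9.03 CPM in the other nuclei. That sum was above the other nuclei in both control libraries, most in control replicate 2. Of 10 excitatory neuron genes 6 were called lower, and *Neurod6*, a neuronal differentiation factor, still had 19.5, 16.2, 40.6 and 42.3 CPM in endothelial nuclei against 63.7 to 112 in the others. Of 6 lymphatic genes 2 were called higher, *Flt4*, named above, and *Mmrn1* at 17.5, 104, 46.3 and 17.6 CPM against at most 0.254, while *Prox1* (0.944 to 66.1 CPM, highest in *Dnmt1* KO replicate 1) and *Lyve1* (at most 1.25 CPM) did not meet the call. Among the genes with the lowest ratios *Meis2* had 333, 394, 452 and 293 CPM against 1782 to 2261. Of 13 genes of the DNA methylation machinery, 1 was called higher, the de novo methyltransferase *Dnmt3b* at 48.6, 53.7, 58.5 and 26.4 CPM against 7.07 to 9.54, a share near the 6.27% of all genes.

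A small subset of the endothelial nuclei carried arterial genes. The subset was defined after the values were seen, by at least 3 transcripts of *Bmx*, *Gja4*, *Gja5* and *Fbln5* together, and it held 26 of 383 nuclei (6.79%). There were 2 of 36 in *Dnmt1* KO replicate 1 (5.56%, 95% exact binomial interval 0.680 to 18.7%), 19 of 227 in *Dnmt1* KO replicate 2 (8.37%, 5.11 to 12.8%) and 5 of 77 in control replicate 1 (6.49%, 2.14 to 14.5%). Control replicate 2 had 0 of 43 (0%, 0 to 8.22%). The same count was reached by 6 of 11926 excitatory neuron nuclei. The 4 intervals overlapped.

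Genes that had no part in choosing the 26 nuclei differed between them and the remaining 357. Pooled over libraries, *Vegfc* had 1757 CPM in the arterial-gene nuclei and 94.4 CPM in the rest, and 25 of the 26 nuclei held it. *Efnb2*, the arterial ephrin, had 1167 against 197 CPM and was found in all 26. The netrin receptor *Unc5b* had 912 against 159 CPM, and the Notch target *Hey1* 77.3 against 11.7 CPM. Outside the lists the laminin chain *Lama3* had 763 against 16.2 CPM and was found in 23 nuclei, the factor *Sox6* had 1466 against 194 CPM, *Prdm16* 877 against 75.9 CPM and the chemokine *Cxcl12* 341 against 42.0 CPM. *Dkk2* had 561 against 0.711 CPM, but came from 9 nuclei.

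Several venous, Wnt and tip cell genes were lower in the same nuclei. The apelin receptor *Aplnr* had 4.99 CPM against 36.6 in the rest, and the glutamine carrier *Slc38a5* 12.5 against 71.8 CPM. *Lef1* had 391 against 1061 CPM and *Apcdd1* 264 against 720.1 CPM. *Apln* was at 0, at least 6.63-fold lower than the 49.6 CPM of the rest against a floor of 3 transcripts over the 26 nuclei. Not all members of these lists were lower: *Vwf* had 643 against 326 CPM, *Fzd6* 551 against 294 CPM and *Pdgfb* 242 against 206 CPM. *Slc22a8* had 52.3 against 262 CPM, whereas the glucose carrier *Slc2a1* had 833 against 831 CPM and *Abcb1a* 511 against 453 CPM. The division genes *Mki67* (44.9 against 201 CPM) and *Cenpe* (4.99 against 160.0 CPM) were also lower. These are pooled values from nuclei of 3 libraries, most of them from *Dnmt1* KO replicate 2, and were not tested.

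**Figure D3:**
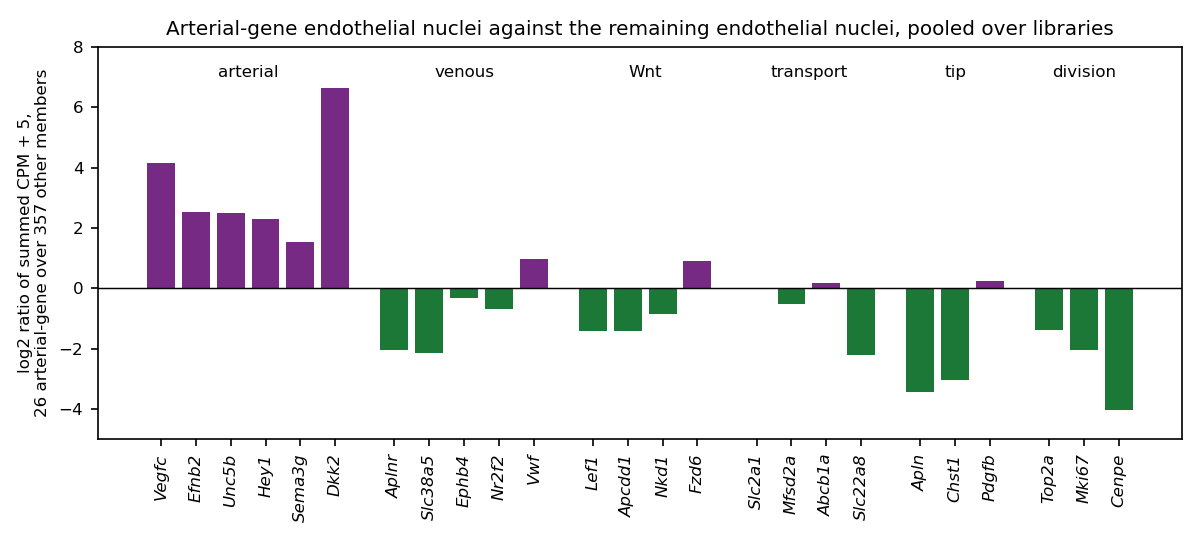
Log2 ratio of the summed CPM + 5 in the 26 arterial-gene endothelial nuclei over that in the remaining 357, pooled over libraries, for genes not used to choose them (bars from 0, grouped by role). Arterial genes lie above 0, while *Aplnr*, *Slc38a5*, *Lef1*, *Apcdd1*, *Slc22a8*, *Apln* and the division genes lie below it, *Vwf* and *Fzd6* lie above it, and *Slc2a1* and *Abcb1a* lie near it.

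A larger subset was dividing. At least 5 transcripts of *Top2a*, *Mki67*, *Cenpe* and *Cenpf*, a limit also set after the values were seen, were found in 6 of 36, 58 of 227, 14 of 77 and 10 of 43 endothelial nuclei, or 16.7, 25.6, 18.2 and 23.3%. The whole came to 88 of 383 (23.0%), against 516 of 11926 excitatory neuron nuclei (4.33%), and 2 nuclei were in both the arterial-gene and the dividing subset. The dividing nuclei had medians of 12878.5, 13223, 14882.5 and 42912.5 transcripts in library order. Over all endothelial nuclei the medians were 12090, 11762, 12845 and 25085, and the dividing share was not taken at equal depth. Against all other nuclei, 1 of 25 G2/M genes (*Cdk1*, list median log2 ratio 0.51) and 1 of 20 S phase genes (*Mcm6*, median 0.39) were called higher, beside 6.27% of all genes. The planned measure was at least 3 transcripts of 25 G2/M genes. One of them, *Smc4*, was found in 18 of the 26 arterial-gene nuclei and 244 of the remaining 357, so this measure does not count dividing nuclei. It was met by 30.6 and 59.5% of the *Dnmt1* KO and 63.6 and 69.8% of the control members. The shares differ by -21.7 points (exact two-sided permutation test over 2 against 2 libraries, p = 0.333, the smallest p this design allows). At 5000 transcripts per nucleus the shares were 20 and 33.3% against 35.7 and 19.0%, so that the groups overlapped. Every one of the 383 nuclei held a transcript of the venous list, whose *Tshz2* and *Vwf* are general endothelial genes here, so no nucleus had arterial genes alone. For the same reason, venous genes alone means here only that no transcript of the arterial list was found, and does not measure venous identity. This held for 2.78 and 25.1% of nuclei against 16.9 and 9.30% (difference 0.851 points, exact permutation test, p = 1). This difference was below 0 with the limits on mapped reads (-5.24 points), after thinning (-7.01 points), without *Dnmt1* KO replicate 2 (-10.3 points) and without control replicate 2 (-2.94 points).

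Whether the *Dnmt1* KO brains held more or fewer endothelial nuclei was asked next. They were 36 of 5640 retained nuclei in *Dnmt1* KO replicate 1 (0.638%, interval 0.447 to 0.883%), 227 of 12064 in *Dnmt1* KO replicate 2 (1.88%, 1.65 to 2.14%), 77 of 7047 in control replicate 1 (1.09%, 0.863 to 1.36%) and 43 of 4905 in control replicate 2 (0.877%, 0.635 to 1.18%). Both the lowest and the highest share were *Dnmt1* KO libraries, but with the limits set on mapped reads control replicate 2 was lowest, at 19 of 4798 (0.396%), below the 0.560 and 1.79% of the *Dnmt1* KO libraries. The means were 1.26% ± 0.879 (SD, n = 2) for *Dnmt1* KO and 0.985% ± 0.153 (SD, n = 2) for control, a difference of 0.275 points (exact permutation test, p = 1). Without *Dnmt1* KO replicate 2 the difference was -0.346 points, with the limits on mapped reads 0.481 points and with no upper limit on transcripts 0.129 points. The intervals cover counting error only, and the number of vessels in each dissected piece was not measured.

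**Figure D4:**
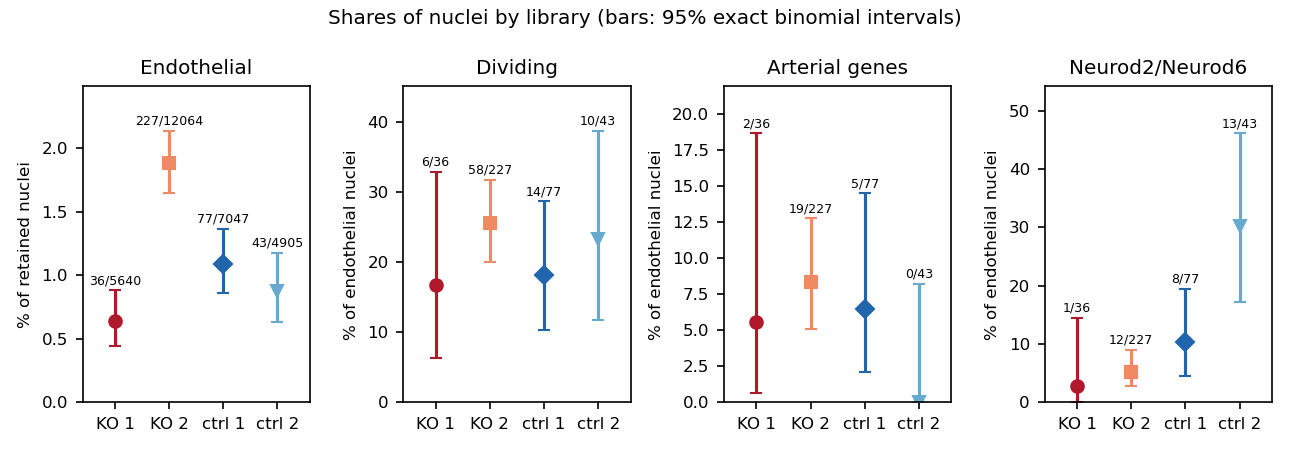
Share of endothelial nuclei among retained nuclei, and shares of dividing, arterial-gene and *Neurod2* or *Neurod6* nuclei among endothelial nuclei, in percent for each library, with 95% exact binomial intervals and counts above them. With the limits on transcripts, as drawn, the *Dnmt1* KO libraries lie on both sides of the controls for the first share, and the neuron gene share is highest, at 30.2%, in control replicate 2.

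*Dnmt1* was present in the endothelial nuclei of both genotypes. Its summed level was 52.5, 83.7, 61.4 and 64.7 CPM in library order, and the groups overlapped (log2 difference 0.13 ± 0.29 SE, edgeR adjusted p = 0.999). It was detected in 41.7, 48.9, 37.7 and 67.4% of endothelial nuclei. The counts are per gene, so they do not show whether the part of *Dnmt1* between the recombination sites was kept.

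Between genotypes no gene passed the test in endothelial nuclei. edgeR's quasi-likelihood test on the summed counts, with Benjamini-Hochberg adjustment over 9299 genes, called 0 genes (0%), the smallest adjusted p being 0.632. At an unadjusted p under 0.05 there were 328 genes (3.53%), 165 higher (1.77%) and 163 lower (1.75%) in *Dnmt1* KO. Both *Dnmt1* KO libraries lay above both controls for 14.8% of genes and below both for 17.4%. DESeq2 on the same sums called 6 genes, all higher in *Dnmt1* KO: *Slit3*, *Col15a1*, *Adamts9*, *Nr4a1*, *Bmx* and *Zfp385b*. The 10 genes with the smallest p, none passing, included 9 with higher values in *Dnmt1* KO, among them the matrix gene *Col15a1* and the matrix proteases *Adamts9* and *Adamts1*.

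*Col15a1*, a basement membrane collagen (chr4:47207582-47313179), had 138 and 104 TMM-scaled CPM in *Dnmt1* KO against 20.8 and 15.2 in control libraries (log2 difference 2.73 ± 0.31 SE, edgeR adjusted p = 0.632). It came from 10, 65, 12 and 7 nuclei, and without the nucleus that held most in each library it kept 85.3 and 89.7 against 15.7 and 11.4 CPM. *Adamts9*, a secreted protease, had 548 and 516 against 151 and 177 CPM (1.70 ± 0.20, adjusted p = 0.632) from 29, 181, 42 and 30 nuclei. In all other nuclei it had 37.7 and 37.6 against 13.3 and 10.1 CPM (edgeR interaction 0.05 on the log2 scale, adjusted p = 1). The related protease *Adamts1* had 93.0 and 104 against 30.3 and 25.3 CPM (1.83 ± 0.25), the immediate-early nuclear receptor *Nr4a1* had 134 and 119 against 33.2 and 16.1 CPM (2.36 ± 0.37), and the glycoprotein *Fstl1* had 85.0 and 74.8 against 27.5 and 21.1 CPM (1.71 ± 0.28). In each of these 5 genes both *Dnmt1* KO libraries lay above both controls also without the leading nucleus of each library.

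Other genes of the 10 rested on few nuclei. *Slit3*, a guidance ligand, had 379.8 and 448 against 91.9 and 48.2 CPM (2.57 ± 0.34, edgeR adjusted p = 0.853), but in *Dnmt1* KO replicate 1 a single nucleus held 167 of its 192 transcripts (87.0%). Without that nucleus the library had 54.4 CPM, below the 63.0 CPM of control replicate 1 treated the same way. With scrublet doublets left out its log2 difference was 0.06, and with the limits set on mapped reads 0.64. *Bmx*, the arterial kinase, had 27.7 and 52.7 against 4.74 and 0.845 CPM (3.94 ± 0.68), and in *Dnmt1* KO replicate 1 all 14 transcripts were in 1 nucleus. Its log2 difference ran from 3.15 without control replicate 2 to 5.55 without control replicate 1. *Sphkap* had 12 of 13 transcripts of *Dnmt1* KO replicate 1 in 1 nucleus. The phospholipase *Plcg2* had 27.7 and 24.9 against 5.69 and 4.22 CPM from 9, 32, 6 and 3 nuclei. It was another gene of the arterial-gene nuclei, with 122 CPM there and 9.78 CPM in the rest, and without those nuclei its log2 difference went from 2.38 to 1.73, and that of *Fstl1* from 1.71 to 1.19. The long noncoding RNA *Gm44593*, the only one with lower values in *Dnmt1* KO, had 1.98 and 3.79 against 21.8 and 20.3 CPM. In the controls 14 of 23 and 17 of 24 of its transcripts were in 1 nucleus each, without which they had 8.84 and 5.83 CPM, and its log2 difference went from -2.60 to -3.31 without *Dnmt1* KO replicate 2.

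**Figure D5:**
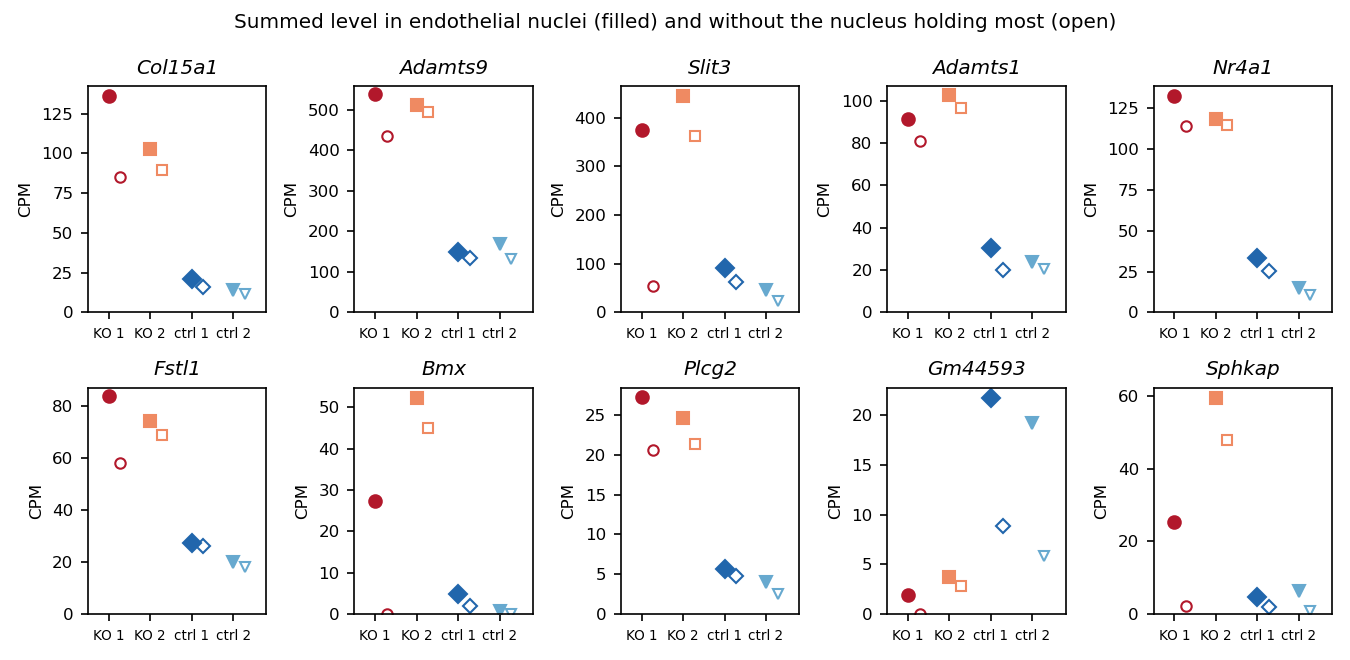
Summed level in CPM (before TMM scaling) of the 10 genes with the smallest p between genotypes, in the endothelial nuclei of each library (filled symbols) and after removing the nucleus that held most of the gene's transcripts (open symbols). *Col15a1*, *Adamts9*, *Adamts1*, *Nr4a1* and *Fstl1* keep both *Dnmt1* KO libraries above both controls in the open symbols, whereas *Slit3*, *Bmx* and *Sphkap* in KO 1 and *Gm44593* in both controls come mostly from 1 nucleus; no gene passed the test.

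The vascular lists were read against a median log2 difference between genotypes of -0.02 over all genes, of which 14.8% lay above both controls and 17.4% below both. Of the 12 endothelial genes outside the rule none had non-overlapping groups, with a median of 0.09. Of 8 arterial genes tested 4 lay above both controls and 0 below, with a median of 0.51: *Bmx*, *Gja5* (11.9 and 34.1 against 4.74 and 0 CPM), *Efnb2* (328 and 291 against 224 and 212 CPM) and *Vegfc* (279 and 273 against 169 and 43.1 CPM). *Bmx* and *Gja5* were used to choose the arterial-gene nuclei, of which control replicate 2 had none. The low-count filter keeps a gene that is high in the libraries of 1 genotype, and these 2 genes were high in *Dnmt1* KO only. Of 13 arterial genes listed, the rest beyond the 8 were not tested, so the count and the median lean toward *Dnmt1* KO. *Vegfc* and *Efnb2* were not used to choose the arterial-gene nuclei but depend on them as well. Those nuclei held 705 *Vegfc* and 468 *Efnb2* transcripts, against 531 and 1106 in the remaining endothelial nuclei. Of 16 basement membrane genes 7 lay above and 0 below, with a median of 0.23, among them perlecan (*Hspg2*) at 566 and 347 against 333 and 248 CPM. Of 17 transporters 1 lay above and 5 below, with a median of -0.15, among them *Mfsd2a* at 196 and 128 against 249 and 209 CPM. Of 20 Wnt genes 4 lay above and 5 below, near the shares of all genes, with a median of -0.02, and *Lef1* had 1119 and 993 against 1081 and 1074 CPM.

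Of 23 G2/M genes 5 lay above both controls and 2 below (median 0.18), and of 16 S phase genes 3 lay above and 0 below (median 0.41), shares near the 14.8% of all genes that lay above. Of 5 genes of caveolae and transcytosis 3 lay above and 1 below (median 0.48), and of 8 VEGF genes 3 lay above and 1 below (median 0.40). Of 8 excitatory neuron genes 5 lay below both controls and 0 above, with a median of -0.88, for example *Neurod6* at 19.8 and 16.4 against 40.7 and 44.8 CPM. The endothelial nuclei with *Neurod2* or *Neurod6* transcripts were also more frequent in both controls than in both *Dnmt1* KO libraries. These nuclei were deep, with medians of 54139, 31535.5, 21235 and 44968 transcripts in library order. Over all endothelial nuclei the medians were 12090, 11762, 12845 and 25085, and the share was not taken at equal depth. With those 34 nuclei left out, edgeR called 0 of 7948 genes, with a smallest adjusted p of 0.0730, and the log2 difference of *Slit3* went from 2.57 to 1.93. No list gave a gene past the test.

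A test of the interaction asked whether the genotype difference was the same in endothelial nuclei as in the other nuclei of the same libraries. It called 102 of 19667 genes (0.519%), 29 with a higher and 73 with a lower difference in endothelial nuclei. The 73 include *Cdh5*, a gene of the rule, whose values rest on how the nuclei were chosen. Without the 26 arterial-gene nuclei there were 16 higher and 84 lower, and without the 34 neuron gene nuclei 110 higher and 128 lower. Of the 29, 23 were measured well enough to be tested in endothelial nuclei alone, and 22 of those had both *Dnmt1* KO libraries above both controls there. Of the 73, 61 were tested there and 23 had both *Dnmt1* KO libraries below both controls. These genes were picked by a difference that includes the endothelial values, so the counts are a description, beside 14.8% above and 17.4% below over all genes. *Col15a1* led them, with a log2 difference of 2.73 in endothelial nuclei and -0.27 in the others (difference between them 3.05 ± 0.39 SE, edgeR adjusted p = 1.59e-11). Relative to its SE this was no larger than in endothelial nuclei alone (2.73 ± 0.31). There the unadjusted edgeR p was 0.000114, against 2.42e-15 in the interaction. The interaction p-values thus lean more on variance estimates shared over genes, which the test in endothelial nuclei also uses. The p-values of both tests do not measure the spread between 4 brains alone. *Nr4a1* had 2.36 against -0.14 (2.62 ± 0.38, adjusted p = 2.89e-08) and *Adamts1* 1.83 against 0.10 (1.78 ± 0.39, adjusted p = 0.00202). The wingless antagonist *Dkk2* (4.76, adjusted p = 7.07e-06) came from 11 nuclei of *Dnmt1* KO replicate 2, 1 of which held 78 of 227 transcripts.

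Of the 73 genes with a lower difference, 43 were at least 1 log2 unit higher in *Dnmt1* KO in the other nuclei. The fibroblast genes *Bnc2* and *Ranbp3l* were the clearest: *Bnc2* had 10.7 and 73.6 against 4.61 and 2.65 CPM in the other nuclei, with the high value in *Dnmt1* KO replicate 2. That library had 173 CPM of fibroblast genes, a sum that includes *Bnc2* and *Ranbp3l* themselves. The endothelial genes *Mecom*, *Cgnl1*, *Slc22a8* and *Lef1* were also called, with differences of 0.07, -0.04, -0.18 and -0.03 in endothelial nuclei and 1.82, 1.69, 1.28 and 1.39 in the others, so that the larger difference was that of the other nuclei. *Cdh5* is also among the 43. Without *Dnmt1* KO replicate 2 the interaction called 26 genes, 15 higher and 11 lower, and without control replicate 2 it called 68, 41 higher and 27 lower, so that the excess of lower differences turned. Batch 2 held control replicate 2 alone, so that batch, depth and library cannot be told apart for it. With control replicate 2 left out, which compares libraries within batch 1, the test in endothelial nuclei called 0 genes, with the lone control assumed to vary like the *Dnmt1* KO pair, and the batch as a covariate gave 7. That covariate takes up control replicate 2, so the genotype difference there also rests on 1 control, and *Col15a1* had 2.51 on the log2 scale in both.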

How the data were processed

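Single-nucleus RNA was measured in 2 *Dnmt1* KO and 2 control libraries, grouped by the genotype in the labels. Transcript counts per barcode and gene were deposited by the authors as unfiltered matrices with 304579, 285118, 328873 and 209159 barcodes, made with the Trailmaker pipeline against GRCm39 (its version is not given in the sources used here). The submitters' processing notes name R 4.4.1 and Seurat 5.0.1.9001. Barcodes with 1500 to 60000 transcripts were retained. The members and gene lists were chosen with earlier results of these data known, and the arterial-gene and dividing subsets after their values were seen.

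Counts of 56884 genes, 56323 of them matched to GENCODE M39 for coordinates, were summed per library over the endothelial and over all other retained nuclei. Levels are CPM of these sums, ratios are log2(CPM + 5), and genes with at least 50 transcripts were compared. Genotypes were compared with edgeR 4.0.16 (TMM, filterByExpr, quasi-likelihood test, adjusted p under 0.05), and the interaction on 8 sums with the library as a block. DESeq2 1.42.0 in R 4.3.3 was an alternative. Shares were compared by exact permutation over libraries. Nuclei are not replicates. Per the study, the libraries stand for 2 brains from 2 mice per genotype. Both edgeR tests, between genotypes in endothelial nuclei and of the interaction, use variance estimates partly shared over genes. Their p-values do not measure the spread between these brains alone, and those of the interaction lean more on the shared estimates. Doublets were called with scrublet in scanpy 1.11.5 and kept, except in an alternative. Excitatory neuron nuclei, used for background, were defined by *Neurod2* and *Neurod6* counts, mural nuclei by *Pdgfrb* with *Rgs5*, *Kcnj8*, *Abcc9*, *Notch3* and *Cspg4*, and microglial nuclei by *Csf1r* with further microglial genes. Exact binomial intervals (95%) and the limit of 3 counts for a 0 cover counting error only. The named genes are the 25 outside the rule with the highest lowest ratio over libraries, the 10 with the smallest p between genotypes where fewer than 10 pass, and genes of the lists; *Lama3*, *Sox6*, *Prdm16*, *Cxcl12*, *Zfp385b* and the lowest ratios were named after their values were seen. Alternatives were the doublet, depth, gate, normalization, filter, batch and leave-one-out settings whose effect is given at the end.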

Additional observations from a re-analysis of the deposited data

Results flagged for a closer look

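The genotype difference differed between endothelial and other nuclei, by edgeR's interaction test with Benjamini-Hochberg adjustment, for 102 genes. The p-values of this test lean on variance estimates shared over genes and do not measure the spread between brains alone. Of the 29 with a higher difference in endothelial nuclei, those on the lists or named between genotypes were, on the log2 scale, *Dkk2* (4.76, adjusted p = 7.07e-06), *Bmx* (3.84, adjusted p = 0.0135), *Col15a1* (3.05, adjusted p = 1.59e-11), *Nr4a1* (2.62, adjusted p = 2.89e-08), *Sphkap* (2.18, adjusted p = 0.00138), *Slit3* (1.98, adjusted p = 3.02e-05), *Adamts1* (1.78, adjusted p = 0.00202) and *Fstl1* (1.36, adjusted p = 0.0310). *Bmx*, *Sphkap* and *Slit3* came mostly from 1 nucleus in *Dnmt1* KO replicate 1, and *Dkk2* was at 0 there.

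Those with a lower difference, among the genes of the lists and without *Cdh5*, which was also called but was used to choose the nuclei, were the fibroblast genes *Bnc2* (-5.37, adjusted p = 8.92e-21) and *Ranbp3l* (-5.05, adjusted p = 8.38e-07), the neuronal genes *Reln* (-1.75, adjusted p = 0.00371) and *Gad2* (-1.55, adjusted p = 0.0348), and the endothelial genes *Mecom* (-1.64, adjusted p = 0.00538), *Nkd1* (-1.58, adjusted p = 0.000581), *Cgnl1* (-1.33, adjusted p = 0.0169), *Lef1* (-1.30, adjusted p = 0.0348) and *Slc22a8* (-1.28, adjusted p = 0.0314). In the other nuclei of *Dnmt1* KO replicate 2 *Ranbp3l* had 40.2 CPM against 0.734 to 1.60 in the other libraries, and the part of its fibroblast transcripts in these calls was not tested.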

How the results depend on the processing

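The limits are the small numbers, 2 libraries per genotype and 36 endothelial nuclei in *Dnmt1* KO replicate 1, and the depth of control replicate 2, the only library of its batch. In endothelial nuclei, edgeR without the low-count filter called 157 genes (91 higher, 66 lower), the batch as a covariate gave 7, DESeq2 gave 6, and leaving out single libraries gave 0 to 76, the 76 without control replicate 1. With a replicate block the count stayed at 0. Same-numbered libraries correlated at 0.119 in their deviations from the genotype means. With 2 libraries per genotype both pairs must give the same value, so this is 1 estimate. The labels do not tie the numbers to a litter or day, so these libraries share only a number. Left-out doublets, the reads filter, thinning, both other gates and both other scalings each gave 0, as did leaving out the 34 neuron gene nuclei or the 26 arterial-gene nuclei, both settings added after seeing the data. The interaction called 41 genes without doublets (6 higher, 35 lower), 34 after thinning (6 higher, 28 lower), 238 without the neuron gene nuclei (110 higher, 128 lower) and 26 to 158 without single libraries, lowest without *Dnmt1* KO replicate 2, where 15 were higher and 11 lower, and highest without control replicate 1, the causes of which were not tested. With the reads filter it called 116 genes, of which 72 were higher and 44 lower. The difference in the endothelial share ran from -0.346 to 0.897 points when single libraries were left out. The venous-only difference was -5.24 points with the reads filter and -7.01 points after thinning, and ran from -10.3 to 12.02 points without single libraries, and the arterial-only difference stayed at 0 there and was 1.43 points with the reads filter. The difference in the planned G2/M share ran from -36.1 to -7.23 points without single libraries and was -0.714 points after thinning. Over the 10 genes named between genotypes and the alternatives in which they could be fitted, 0 values turned direction, and 22 gene and setting pairs passed the test, 10 of them without the low-count filter, 6 without control replicate 1, 5 with DESeq2 and 1 with the batch as a covariate. Without single libraries *Bmx* ran from 3.15 to 5.55 (3.94 with all 4), *Nr4a1* from 1.92 without control replicate 2 to 2.99 without control replicate 1 (2.36 with all 4) and *Sphkap* from 2.14 without *Dnmt1* KO replicate 2 to 3.36 without *Dnmt1* KO replicate 1, and *Gm44593* reached -3.31 without *Dnmt1* KO replicate 2. *Slit3* went from 2.57 to 0.06 without doublets, 0.64 with the reads filter, 1.62 after thinning and 1.93 without the neuron gene nuclei.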
